A study of Homo sapiens with 4 samples.

Results

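Genes of cholesterol and fatty acid synthesis were read out in A549 and HCC827, a pair of established human lung adenocarcinoma (LAD) cell lines. The set holds 34 genes out of the 60558 gene identifiers measured in each library, and its members were chosen by name: 19 genes of the sterol branch, 10 genes of the fatty acid branch, and 5 genes that encode the SREBP factors and the proteins that hold them back or carry them forward. Each line had been transduced either with an empty vector or with myr-AKT1, an AKT1 kinase that carries a myristoylation signal, which anchors it at the membrane and keeps it active without an upstream stimulus. Each of the 4 groups (A549-myr-AKT1 with its A549-vector control, and HCC827-myr-AKT1 with its HCC827-vector control) had 1 library, so a difference within a line has no replicate check. The promoter that drives the construct, and whether the transduced cells were 1 clone or a pool, are not given in the sources used here.

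Cells make cholesterol from acetyl-CoA through mevalonate, the isoprenoids, squalene and lanosterol, and they make fatty acids from the same acetyl-CoA through malonyl-CoA, palmitate and then chain elongation and desaturation. Both branches are transcribed under the control of the SREBP factors, which are made as membrane proteins of the endoplasmic reticulum. SCAP escorts them to the Golgi for cleavage when sterols are scarce, INSIG1 and INSIG2 hold the SCAP-SREBP complex back when sterols are plentiful, and AKT signaling is known to promote SREBP processing in many cell types. SREBP proteins bind sterol response elements, mostly together with NF-Y, which binds CCAAT, and SP1, which binds GGGCGG.

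To show the letters that lie in front of these genes, the 250 bases upstream of 1 transcription start per gene were taken from RefSeq (GRCh38.p14), which held a window for 30 of the 34 genes and for 15311 protein-coding genes in all. ACAT2, FDFT1, SQLE and FASN had no window in the table used. The 5 windows below were selected because they belong to a gene with the full sterol response element (SREBF2), a gene with an E-box (INSIG1), genes with 4 and 5 copies of CCAAT whose fold changes had opposite signs (MSMO1 and NSDHL), and the gene with the highest fold change in HCC827 (ACSS2). Capitals mark the sterol response element in its classic form (the longest run of capitals in SREBF2), the E-box CACGTG, and CCAAT, which reads ATTGG where it lies on the opposite strand. In the order listed they lie at chr22:41832855-41833104, chr7:155297628-155297877, chr4:165327419-165327668, chrX:152830813-152831062 and chr20:34876362-34876611, each on the plus strand. The RefSeq starts of ACSS2, INSIG1, MSMO1 and NSDHL lie inside the gene as GENCODE draws it, ACSS2 the farthest, so that its window is that of an inner start and not of the outermost one.
SREBF2: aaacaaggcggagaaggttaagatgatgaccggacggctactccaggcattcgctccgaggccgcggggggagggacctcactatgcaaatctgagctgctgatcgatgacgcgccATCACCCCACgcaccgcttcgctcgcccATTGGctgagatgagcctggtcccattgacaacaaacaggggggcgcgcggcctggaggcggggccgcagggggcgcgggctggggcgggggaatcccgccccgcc
INSIG1: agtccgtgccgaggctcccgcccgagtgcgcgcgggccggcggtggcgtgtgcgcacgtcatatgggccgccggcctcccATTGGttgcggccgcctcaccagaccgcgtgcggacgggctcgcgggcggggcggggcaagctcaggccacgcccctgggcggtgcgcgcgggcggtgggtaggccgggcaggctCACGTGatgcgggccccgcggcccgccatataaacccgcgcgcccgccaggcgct
MSMO1: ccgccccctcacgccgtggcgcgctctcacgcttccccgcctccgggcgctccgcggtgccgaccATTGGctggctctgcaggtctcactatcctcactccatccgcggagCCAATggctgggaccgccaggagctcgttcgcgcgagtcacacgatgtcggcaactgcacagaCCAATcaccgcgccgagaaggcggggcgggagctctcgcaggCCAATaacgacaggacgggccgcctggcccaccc
NSDHL: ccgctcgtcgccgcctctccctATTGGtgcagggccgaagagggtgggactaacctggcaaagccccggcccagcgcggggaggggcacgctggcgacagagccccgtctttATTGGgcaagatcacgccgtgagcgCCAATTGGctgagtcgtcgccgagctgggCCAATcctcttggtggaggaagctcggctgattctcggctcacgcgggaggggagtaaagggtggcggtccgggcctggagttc
ACSS2: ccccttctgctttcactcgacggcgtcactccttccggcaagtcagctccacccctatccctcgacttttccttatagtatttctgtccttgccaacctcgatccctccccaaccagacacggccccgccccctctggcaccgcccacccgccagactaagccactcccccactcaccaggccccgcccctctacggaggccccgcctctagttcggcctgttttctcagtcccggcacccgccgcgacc

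The classic sterol response element was searched on both strands and was found in 1 of the 30 windows, that of SREBF2, at -134 to -125 from the start, and in 9 of the 15311 windows (0.0588%). A relaxed form, TCACNCCAC, which overlaps it and also matches every classic element, was found in SREBF2 alone among the 30 and in 0.914% of all windows. CACGTG was present in 4 of 30 windows (13.3%), those of ELOVL5, INSIG1, SC5D and SCAP, against 7.90% of all. CCAAT was present in 19 of 30 (63.3%) against 34.9% of all, and its share differed between the branches: 14 of 16 sterol windows (87.5%), 3 of 9 fatty acid windows (33.3%) and 2 of 5 regulator windows held it. GGGCGG was present in 28 of 30 (93.3%) against 59.5% of all windows and 69.4% of the windows of genes with reads in all 4 libraries. CCAAT stood both in front of genes that were higher in myr-AKT1 cells of both lines, such as MSMO1, MVD, SC5D and TM7SF2, and in front of genes that were lower in both, such as NSDHL, EBP, FDPS and HSD17B7. The window of ACSS2 held GGGCGG on the minus strand at 3 positions and none of the letters shown in capitals.

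The values are normalized counts, that is reads divided by 1 size factor per library that the authors set within the pair of libraries of a line, and whole reads were recovered from them. Recovered reads ranged from 16322183 in HCC827-myr-AKT1 to 33530317 in A549-vector, and each member had at least 108 reads in every library. AKT1 itself, which may include reads of the construct, was at 6297 in A549-myr-AKT1 against 4243 in A549-vector (log2 fold change 0.57) and at 4805 in HCC827-myr-AKT1 against 2175 in HCC827-vector (1.14), in the direction of the labels in both lines. Among markers of the lung epithelium, KRT8 and KRT18 were abundant in all 4 libraries, whereas in A549 SFTPB was at 0 in both libraries and NKX2-1 at 9.16 and 0. The 9 epithelial markers summed to 168649 and 194140 in A549-myr-AKT1 and A549-vector and to 90451 and 167714 in HCC827-myr-AKT1 and HCC827-vector, sums that KRT8 and KRT18 dominate in A549. Of the markers that passed the filter on low values, 4 of 7 were higher in A549 (median log2 fold change 0.23), among them KRT19 (2.65) and CDH1 (1.39), and 8 of 9 were lower in HCC827 (median -0.84). In the same order, summed markers were 29.8, 2.62, 15.1 and 19.1 for leukocytes (3 genes, CD3E at 0 in all). They were 137, 13.1, 138 and 76.3 for endothelium (3 genes). For fibroblasts they were 784, 82.1, 184 and 51.7 (4 genes, COL1A2 at 0 in all). The fibroblast sums were mostly COL1A1 (765, 76.8, 179 and 44.5), with DCN and PDGFRB at 14.9 or below in every library. The part of these leukocyte, endothelial and fibroblast markers in the results was not tested. In RNA from whole cultures, fewer cells of a kind and less RNA per cell cannot be told apart.

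**Figure D1:**
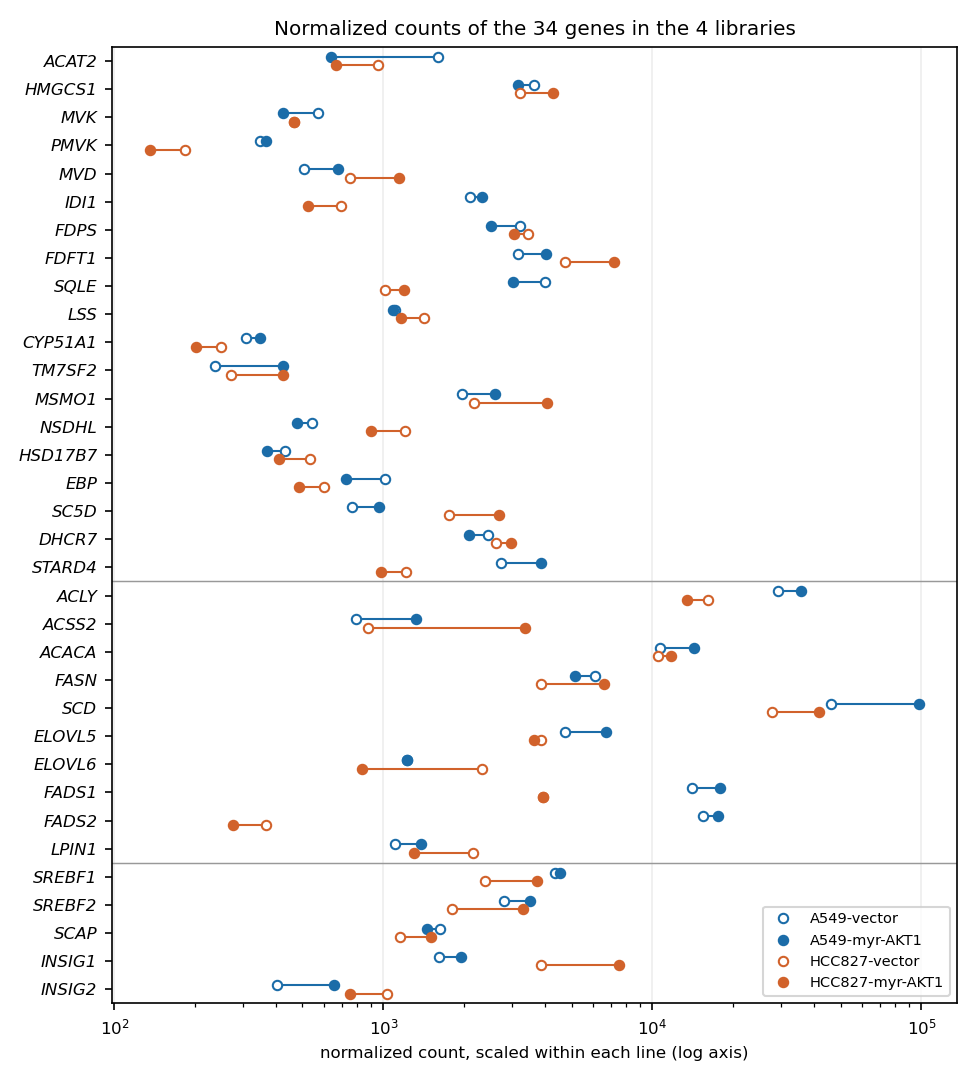
Normalized counts (horizontal log axis, scaled within each line) of the 34 genes, ordered by sterol branch, fatty acid branch and regulators; open circles are vector libraries, filled circles myr-AKT1 libraries, 1 library each, with A549 in blue and HCC827 in orange. SCD has the highest value in every library, and the widest gaps between open and filled circles are those of ACSS2 and ELOVL6 in HCC827 and of ACAT2 and SCD in A549.

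Few of the 34 genes had large fold changes, and each branch held genes of both signs in both lines. In A549, 21 members were higher and 13 lower in myr-AKT1 cells, with a median log2 fold change of 0.18. In HCC827, 17 were higher and 17 lower. SCD was the only member above a log2 fold change of 1 in A549 and ACAT2 the only one below -1, whereas in HCC827 these were ACSS2 and ELOVL6. Of all genes whose normalized counts averaged 10 or more over the libraries of a line, 14.8% were above 1 and 9.86% below -1 in A549 (n = 18688), and 14.0% and 12.4% in HCC827 (n = 17306). Genes whose mean lay between the lowest and the highest member passed these bounds less often, 7.43% above and 7.38% below in A549 and 8.18% above and 9.56% below in HCC827. Within 1 of 0 lay 32 of 34 members (94.1%) in each line, against 75.3% of all genes and 85.2% of genes of that level range in A549, and 73.7% and 82.3% in HCC827. Within 0.5 of 0 lay 28 of 34 members (82.4%) in A549, against 48.8% of all genes and 59.3% of genes of that level range. In HCC827 there were 20 of 34 (58.8%), against 46.1% and 53.9%, a share near that of genes of the same level. Above 0.5 lay 5 members in A549 (26.6% of all genes) and 11 in HCC827 (26.4%), and below -0.5 lay 1 in A549 (24.7%) and 3 in HCC827 (27.6%). No member was past 2 or -2 in either line, bounds that 5.52% and 2.78% of genes passed in A549 and 4.44% and 3.0% in HCC827.

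The sterol branch was split in both lines. In A549, 9 of its 19 genes were higher and 10 lower in myr-AKT1 cells (median -0.03), and in HCC827 again 9 were higher and 10 lower (median -0.17). The fatty acid branch had 8 of 10 genes higher in A549 (median 0.34) and 4 of 10 higher in HCC827 (median -0.04), and the regulators had 4 of 5 higher in each line (medians 0.27 and 0.65). The median over all genes was -0.04 in both lines. The sterol median was therefore below the fatty acid median by 0.37 in A549 and by 0.13 in HCC827 on the log2 scale. When size factors were taken over all 4 libraries, the median of all genes moved up by 0.10 in A549 and the medians of the sterol and fatty acid branches there became 0.07 and 0.44.

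**Figure D2:**
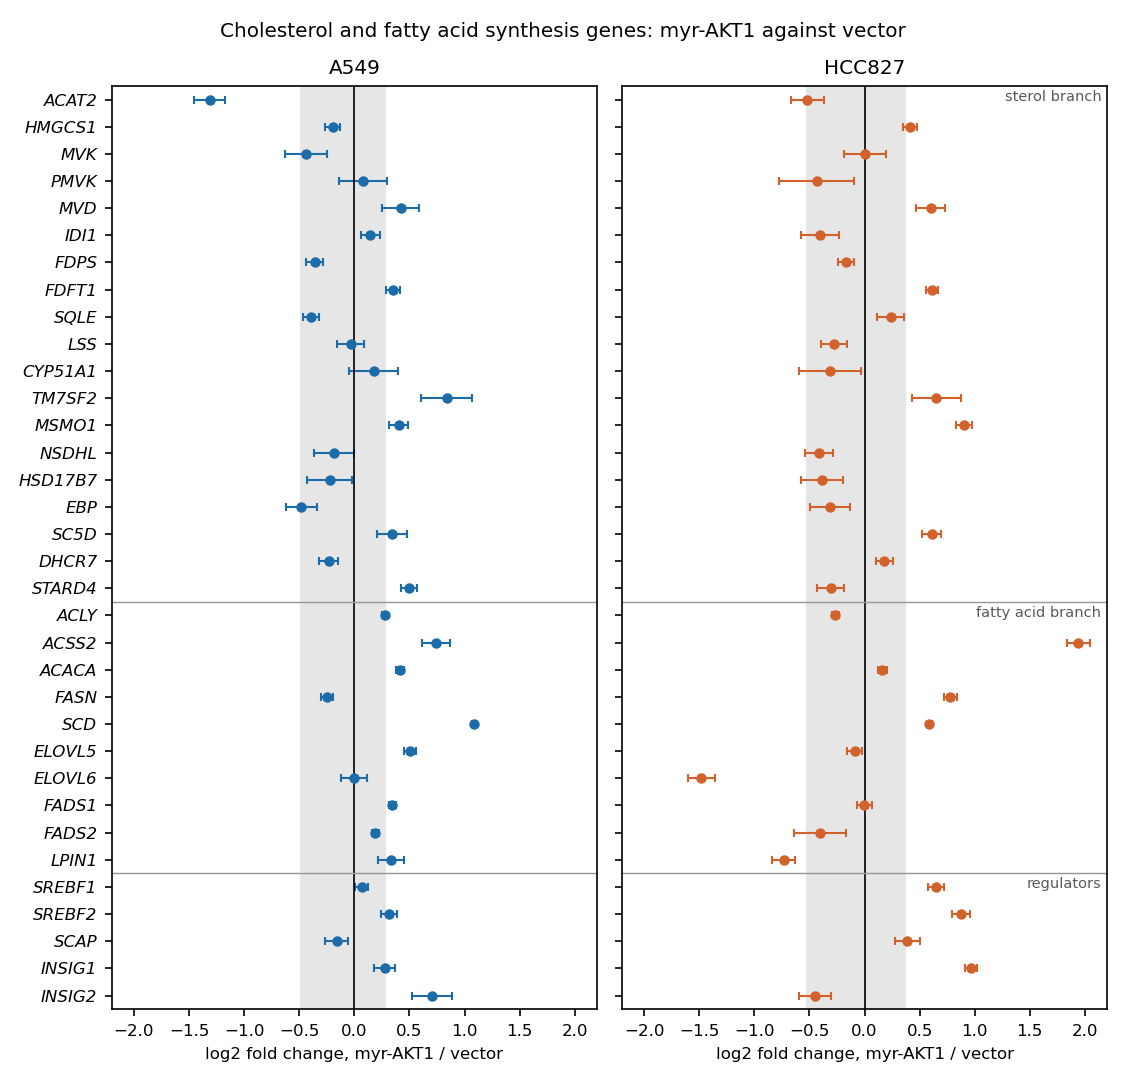
Log2 fold change of myr-AKT1 over vector for each of the 34 genes (horizontal axis) in A549 (left) and HCC827 (right); points are the ratio of 1 library to 1 library, bars are 95% counting intervals, and the gray band spans the middle 50% of genes in the same level range. ACAT2 and SCD lie farthest out in A549, ACSS2 and ELOVL6 in HCC827.

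The early steps of the sterol branch contained its gene with the largest change. ACAT2 (ENSG00000120437, chr6:159762045-159779112), the cytosolic thiolase that joins acetyl-CoA units, had 639 in A549-myr-AKT1 against 1588 in A549-vector and 668 in HCC827-myr-AKT1 against 958 in HCC827-vector. Both lines had it lower in myr-AKT1 cells, at a log2 fold change of -1.31 in A549 (95% interval -1.45 to -1.18) and -0.52 in HCC827 (-0.67 to -0.37). These intervals, and those that follow, are Clopper-Pearson intervals made from reads and hold no error between cultures. Its exons overlap those of TCP1, a chaperonin gene on the opposite strand, over 454 bases (17.2% of the ACAT2 exons), and whether strand was used in counting is not given. TCP1 had 5175 and 9457 in A549-myr-AKT1 and A549-vector and 3827 and 5440 in HCC827-myr-AKT1 and HCC827-vector, log2 fold changes of -0.87 and -0.51, so that reads of both genes were lower together.

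HMGCS1, the synthase that forms HMG-CoA, was split by line. It had 3164 in A549-myr-AKT1 and 3626 in A549-vector, but 4267 against 3209.9 in HCC827 (log2 fold changes -0.20 and 0.41). MVK, PMVK and MVD are the kinases and the decarboxylase that turn mevalonate into isopentenyl pyrophosphate. MVK had 423 and 572 in A549-myr-AKT1 and A549-vector (-0.44, interval -0.62 to -0.25) and 467 in both HCC827 libraries (0.00, -0.19 to 0.19). PMVK, the lowest member in HCC827, had 366 and 347 in A549-myr-AKT1 and A549-vector and 136 and 184 in HCC827-myr-AKT1 and HCC827-vector. Its interval included 0 in A549 (-0.14 to 0.30) and lay below 0 in HCC827 (-0.78 to -0.10). MVD was the member of this trio that was higher in both lines, with 678 against 506 in A549 and 1138 against 751 in HCC827 (0.42 and 0.60).

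IDI1, FDPS and FDFT1 lead from isopentenyl pyrophosphate to squalene. IDI1, the isomerase, had 2314 in A549-myr-AKT1 and 2091 in A549-vector, and 525 against 695 in HCC827, slightly higher in A549 (0.15) and lower in HCC827 (-0.40). FDPS, which makes farnesyl pyrophosphate, the last intermediate shared with protein prenylation, had 2515 against 3221 in A549 and 3051 against 3438 in HCC827 (-0.36 and -0.17). FDFT1, squalene synthase, which commits farnesyl pyrophosphate to sterols, went the other way, with 4032 against 3161 in A549 and 7221 against 4730.2 in HCC827 (0.35 and 0.61). The branch point enzyme and the enzyme next to it thus had opposite signs in both lines. SQLE, squalene epoxidase, was lower in A549 with 3025 against 3974 (-0.39) and higher in HCC827 with 1197 against 1015 (0.24).

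The steps from lanosterol to cholesterol showed both directions. TM7SF2, a sterol reductase, had 423 in A549-myr-AKT1 against 237 in A549-vector and 424 in HCC827-myr-AKT1 against 270.2 in HCC827-vector, the highest fold change of the branch in A549 (0.84, 0.61 to 1.07) and 0.65 (0.43 to 0.87) in HCC827. MSMO1 (ENSG00000052802, chr4:165327667-165343164), the methyl oxidase of this stretch, had 2589 against 1961 in A549 and 4057 against 2169.6 in HCC827. It was the highest of the branch in HCC827 (0.90, 0.83 to 0.98) and 0.40 (0.32 to 0.49) in A549. NSDHL and HSD17B7 work beside MSMO1 in removing the same methyl groups, and both were lower in both lines. NSDHL had 475 against 541 in A549 and 902 against 1202 in HCC827 (-0.19 and -0.41). HSD17B7 had 369 against 431 in A549 and 408 against 532 in HCC827 (-0.22 and -0.39). Reads of HSD17B7 may be shared with the pseudogene HSD17B7P2, which had 126 against 154 in A549 and 47.8 against 23.0 in HCC827.

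EBP, a sterol isomerase, was also lower in both lines, with 728 against 1016 in A549 and 483 against 601 in HCC827 (-0.48 and -0.31). Of the EBP exons, 36.4% are shared with ENSG00000286268 on the same strand, which was between 4.58 and 6.29 in the 4 libraries. SC5D, the desaturase that follows EBP, was higher in both, with 966 against 761 in A549 and 2678 against 1756 in HCC827 (0.34 and 0.61). DHCR7, the reductase that completes cholesterol from its last precursor, had 2085 against 2449 in A549 (-0.23) and 2969.6 against 2625 in HCC827 (0.18). LSS, which closes the ring system of lanosterol, differed by less than counting error in A549, with 1081 against 1106 (-0.16 to 0.09), and was lower in HCC827, with 1163 against 1409.8 (-0.28). CYP51A1, the lanosterol demethylase, had 347 against 307 in A549 (-0.05 to 0.40) and 201 against 249.5 in HCC827 (-0.59 to -0.03). The exons of CYP51A1 are shared over 68.2% with another annotated gene on the same strand, ENSG00000285772, which was at 0 in all 4 libraries, so that its level may be too low. STARD4, a cytosolic carrier of cholesterol, was higher in A549 with 3852 against 2729 (0.50, 0.43 to 0.57) and lower in HCC827 with 976 against 1209 (-0.31, -0.43 to -0.18).

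In the fatty acid branch, the largest values were those of SCD (ENSG00000099194, chr10:100347233-100364826), the desaturase that makes oleate from stearate. SCD had 97554 in A549-myr-AKT1 against 45907 in A549-vector and 41629.8 in HCC827-myr-AKT1 against 27719.8 in HCC827-vector. It was 2.13-fold higher in A549 (log2 fold change 1.09, 1.07 to 1.10) and 1.5-fold higher in HCC827 (0.59, 0.56 to 0.61). SCD alone took 0.338% of all recovered reads in the myr-AKT1 and 0.157% in the vector library of A549, and 0.203% and 0.128% in those of HCC827 (95% exact binomial intervals 0.336% to 0.340%, 0.155% to 0.158%, 0.201% to 0.205% and 0.126% to 0.129%). The whole fatty acid branch took 0.688%, 0.442%, 0.422% and 0.330% in that order, and the sterol branch 0.104%, 0.105%, 0.160% and 0.127%. By reads, the fatty acid branch was therefore larger in the myr-AKT1 library of both lines. The sterol branch was larger in that of HCC827, while in A549 its intervals overlapped (0.103% to 0.106% and 0.104% to 0.106%). These shares are sums in which abundant genes weigh most. In HCC827, 6 of the 10 fatty acid genes and 10 of the 19 sterol genes were lower in myr-AKT1 cells.

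ACSS2 (ENSG00000131069, chr20:34872146-34927962), which makes acetyl-CoA from acetate, showed the highest fold change of the 34 genes. It had 1321 in A549-myr-AKT1 against 792 in A549-vector and 3347 in HCC827-myr-AKT1 against 873 in HCC827-vector. It was 1.67-fold higher in myr-AKT1 cells than in vector cells in A549 (0.74, 0.61 to 0.87) and 3.84-fold higher in HCC827 (1.94, 1.84 to 2.04). ACLY, which makes acetyl-CoA from citrate and is the other supply to both branches, had 35564 against 29407 in A549 (0.27) and 13414 against 16122 in HCC827 (-0.27).

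ACACA, the carboxylase that forms malonyl-CoA and sets the rate of fatty acid synthesis, was higher in both lines, with 14256 against 10671 in A549 (0.42) and 11731 against 10481 in HCC827 (0.16). FASN, the synthase that builds palmitate, had 5130.2 against 6106 in A549 (-0.25, -0.31 to -0.20) and 6611 against 3856 in HCC827 (0.78, 0.72 to 0.83). FASN therefore had opposite signs in the lines, whereas SCD, ACSS2 and ACACA had the same sign. ELOVL6 (ENSG00000170522, chr4:110045846-110199199) elongates palmitate to stearate, the substrate of SCD. It had 1222 and 1223 in A549-myr-AKT1 and A549-vector, an interval of -0.12 to 0.12, and 830.5 in HCC827-myr-AKT1 against 2317 in HCC827-vector (-1.48, -1.60 to -1.36), the lowest fold change of the 34 genes.

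Among the members, ELOVL5, FADS1 and FADS2, genes of polyunsaturated fatty acids, were higher in A549 and not in HCC827. ELOVL5, an elongase, had 6705 against 4722 in A549 (0.51) and 3625 against 3854 in HCC827 (-0.09). FADS1, a desaturase, had 17816 against 14052 in A549 (0.34) and 3913 against 3916 in HCC827 (-0.07 to 0.06). FADS2, the neighboring desaturase, had 17567 against 15415 in A549 (0.19) but 277 against 366 in HCC827 (-0.40, -0.64 to -0.17). FADS1 and FADS2 lie on opposite strands and overlap over 490 exonic bases. LPIN1, a phosphatidate phosphatase on the way to triglycerides, had 1384 against 1100.3 in A549 (0.33) and 1297 against 2159 in HCC827 (-0.74, -0.84 to -0.63).

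Among the regulators, both SREBP genes were higher in HCC827-myr-AKT1 than in HCC827-vector. SREBF2 (ENSG00000198911, chr22:41833105-41907306), the factor that favors sterol genes and itself carries the sterol response element shown above, had 3493 in A549-myr-AKT1 against 2814 in A549-vector and 3294 in HCC827-myr-AKT1 against 1793 in HCC827-vector (0.31, 0.24 to 0.38, and 0.88, 0.80 to 0.96). SREBF1, which favors fatty acid genes, had 4547 against 4345 in A549 (0.07, 0.01 to 0.13) and 3733 against 2379 in HCC827 (0.65, 0.58 to 0.72). SCAP, their escort, had 1453 against 1623 in A549 (-0.16) and 1507 against 1152 in HCC827 (0.39). INSIG1 (ENSG00000186480, chr7:155297776-155310235), the retention protein that is itself an SREBP target, had 1948 against 1610.3 in A549 (0.27, 0.18 to 0.37) and 7515 against 3855 in HCC827 (0.96, 0.91 to 1.02). INSIG2, its paralog, showed the reverse order of lines, with 657 against 403 in A549 (0.70, 0.52 to 0.88) and 754 against 1029 in HCC827 (-0.45, -0.59 to -0.31). INSIG1 and INSIG2 were thus both higher in A549 and opposite in sign in HCC827.

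**Figure D3:**
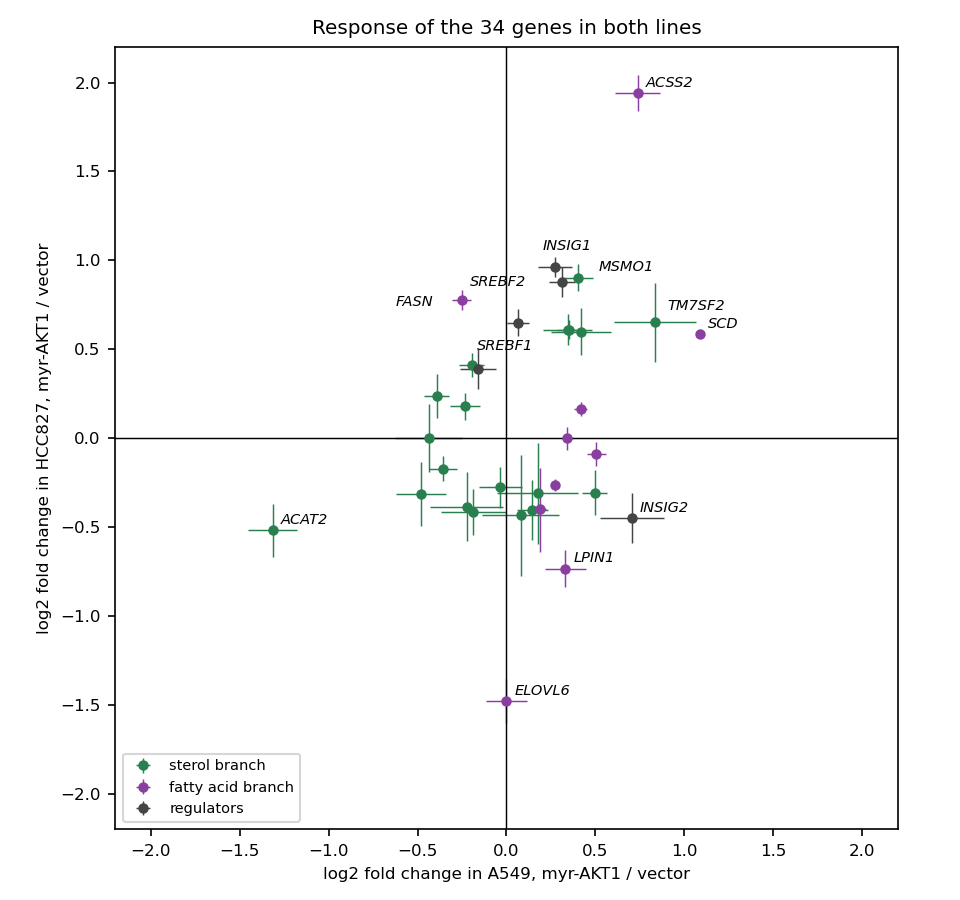
Log2 fold change of myr-AKT1 over vector in A549 (horizontal axis) against HCC827 (vertical axis) for the 34 genes, with 95% counting intervals; green marks the sterol branch, purple the fatty acid branch and gray the regulators, and the genes farther out are named. The upper right area holds, among others, ACSS2, INSIG1, MSMO1, SREBF2, TM7SF2 and SCD, and ELOVL6 lies far below 0 in HCC827 and at 0 in A549.

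Set side by side, the lines gave the same sign for 18 of 34 members, against 65.7% of the 15668 genes measured in both. The counting intervals lay above 0 in both lines for 11 members, MVD, FDFT1, TM7SF2, MSMO1, SC5D, ACSS2, ACACA, SCD, SREBF1, SREBF2 and INSIG1, against 17.9% of all genes. They lay below 0 in both lines for 5 members, ACAT2, FDPS, NSDHL, HSD17B7 and EBP, against 24.1% of all genes, and each of the 5 is a sterol gene. In A549 the intervals of NSDHL and HSD17B7 ended at -0.004 and -0.018. TMM scaling moved fold changes in A549 up by 0.025, so that both intervals then included 0. They excluded 0 with opposite signs for 12 members, against 14.7% of all genes. Of these, 7 were higher in A549 and lower in HCC827 (7.37% of all genes) and 5 the reverse (7.29%). Because genes with many reads have narrow intervals, these shares depend on level as well as on the size of a difference. Over the 34 members, Pearson's r between the lines was 0.35 and Spearman's rho 0.30, against 0.43 and 0.42 across all genes, as a description over genes, which are not independent replicates.

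A fit of limma to all 4 libraries, with cell line as a block and 1 residual degree of freedom, took both lines as replicates. In this fit 0 of the 34 members passed an adjusted p of 0.05, against 1.29% of 19314 genes higher and 1.73% lower. By unadjusted p under 0.05, 3 of the 34 members were higher (MSMO1, ACSS2 and SCD) and 1 was lower (ACAT2). Across all genes 9.17% were higher and 9.24% lower, so the members were not called more often than genes at large. ACSS2 came nearest, with a log2 fold change of 1.34 (SE 0.33, limma adjusted p = 0.084), higher in both lines. SCD had 0.84 (SE 0.31, limma adjusted p = 0.21) and MSMO1 0.65 (SE 0.26, limma adjusted p = 0.23), again higher in both lines. ACAT2 had -0.92 (SE 0.31, limma adjusted p = 0.17), lower in both lines. With the quasi-likelihood test of edgeR, applied to recovered reads, 0 members passed, with an adjusted p of 0.10 for ACSS2. With DESeq2's Wald test 2 members passed, ACSS2 (adjusted p = 0.023) and SCD (adjusted p = 0.036), and both also passed with limma when every gene with a read in any library was kept (adjusted p = 0.00081 and 0.0055), so the call for these genes depends on the tool and on the filter.

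**Figure D4:**
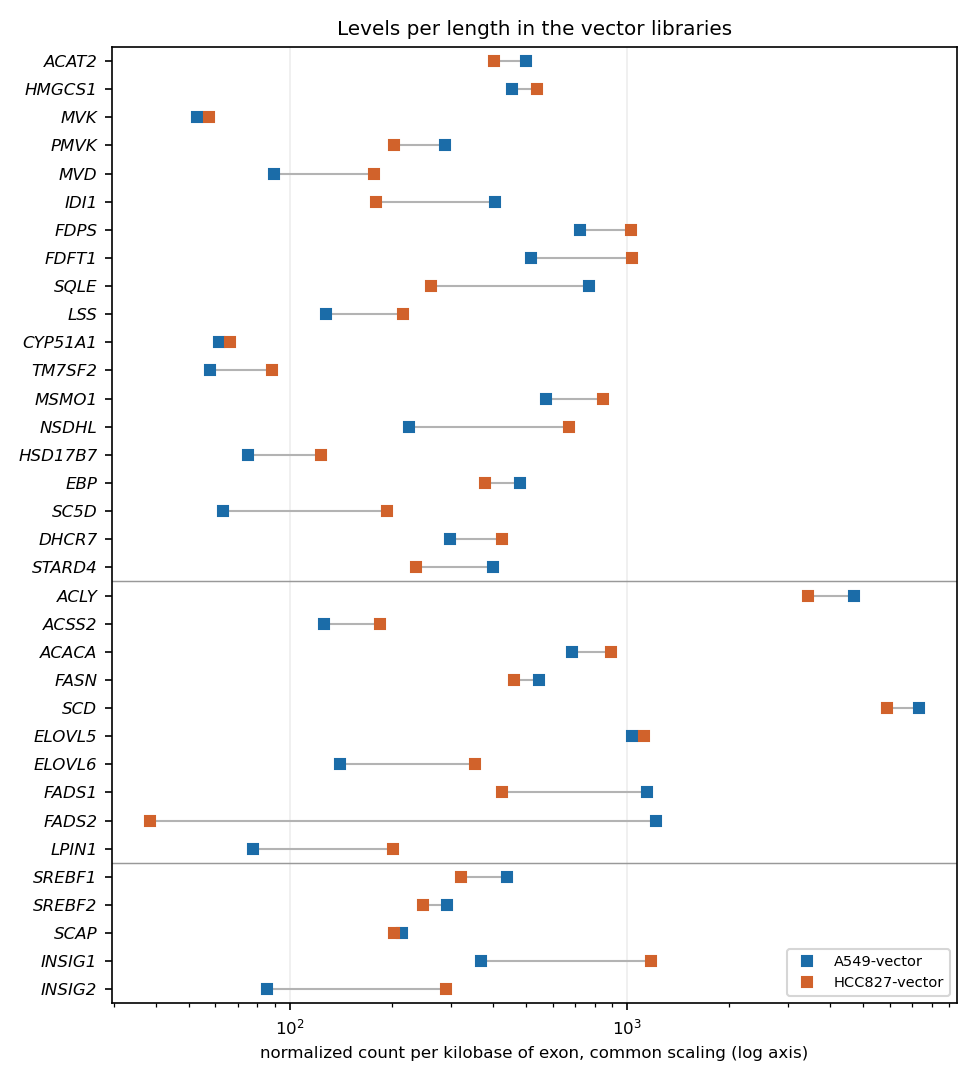
Level of each of the 34 genes in the vector libraries as normalized count per kilobase of exon (horizontal log axis), after size factors common to all 4 libraries; blue squares are A549-vector, orange squares HCC827-vector, 1 library each. The longest line is that of FADS2, at 1219 in A549-vector and 38.5 in HCC827-vector.

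The vector libraries of the 2 lines differed in the levels of some of these genes. On a scale common to all libraries and per kilobase of exon, SCD (7303 in A549-vector and 5877 in HCC827-vector) and ACLY (4711 and 3443) led the fatty acid branch in both. In A549-vector they were followed by FADS2 (1219), FADS1 (1146) and ELOVL5 (1033), and the sterol branch was led by SQLE (770.3), FDPS (723) and MSMO1 (574). In HCC827-vector ELOVL5 (1124) came next, and the sterol branch was led by FDFT1 (1036) and FDPS (1028), which lay close together, then MSMO1 (846) and NSDHL (669). FADS2 was 31.6-fold higher in A549-vector than in HCC827-vector. SQLE (2.94-fold), FADS1 (2.69-fold) and IDI1 (2.26-fold) were also higher in A549-vector. Higher in HCC827-vector were INSIG2 (3.40-fold), INSIG1 (3.19-fold), SC5D (3.07-fold), NSDHL (2.96-fold), LPIN1 (2.62-fold) and ELOVL6 (2.53-fold). With 1 library per line, the spread of these baseline levels between cultures is not known.

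Other genes of the same pathways were grouped in lists by their function. Within a list, highest and lowest refer to the mean log2 fold change over both lines, among genes with at least 20 reads in each pair. Among 14 other genes of SREBP processing and transport, such as the proteases MBTPS1 and MBTPS2, the median log2 fold change was 0.04 in A549 and 0.50 in HCC827. SEC24D, a coat protein of the vesicles that leave the endoplasmic reticulum, was the highest by that mean, with 2039 against 1247 in A549 (0.71) and 3976 against 1212 in HCC827 (1.71). In A549 alone SEC24A was the highest, at 0.85. In HCC827, 2 of the 14 genes were above 1, SEC24D and SEC24A (1.28), against 14.0% of all genes. There, 0 were below -1, against 12.4% of all genes. In A549, 0 were above 1 and 1 was below -1, against 14.8% and 9.86% of all genes.

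Among 12 other isoprenoid genes that were measured, of 13 listed, the median was -0.14 in A549 and -0.29 in HCC827. The highest by mean over both lines was DHDDS, of dolichol synthesis, at 0.34 in A549 and 0.53 in HCC827. In A549 alone GGPS1 was the highest, at 0.45, and it was at -0.24 in HCC827. PDSS1, which makes the side chain of coenzyme Q, was the lowest by that mean, with 165 against 403 in A549 (-1.29) and 98.1 against 429.9 in HCC827 (-2.13). COQ2, the next enzyme of coenzyme Q synthesis, which was picked out after its values were seen, had 319 against 810.4 in A549 (-1.34) and 297 against 689.8 in HCC827 (-1.22). PDSS1 and COQ2 were the 2 of these 12 genes below -1 in each line, against 9.86% of all genes in A549 and 12.4% in HCC827. In both lines 0 were above 1, against 14.8% and 14.0% of all genes.

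Other genes of fatty acid and glycerolipid synthesis, 31 by name, had medians of 0.13 in A549 (30 measured) and 0.10 in HCC827 (28 measured). ACSL1, which activates long-chain fatty acids, was the highest by mean over both lines, with 1770.4 against 741 in A549 (1.26) and 1550.2 against 90.6 in HCC827 (4.10). In A549 alone ACSL5 was the highest, at 3.64, and it was at -0.47 in HCC827. ELOVL2, an elongase, was the lowest by mean over both lines, with 476 against 999.9 in A549 (-1.07) and 44 against 76.3 in HCC827 (-0.79). In HCC827 alone ACACB was the lowest, at -1.06, and it was at -0.01 in A549. In A549, 7 of the 30 measured were above 1 and 1 below -1, against 14.8% and 9.86% of all genes. In HCC827, 3 of the 28 measured were above 1 and 1 below -1, against 14.0% and 12.4% of all genes. Of 10 genes of LXR, sterol efflux and storage, 9 were measured in each line, with medians of 0.46 in A549 and 0.15 in HCC827. ABCA1, the cholesterol efflux pump, was the highest by mean over both lines, with 4654 against 1266 in A549 (1.88) and 4716 against 3209.9 in HCC827 (0.56). In HCC827 alone NPC1 was the highest, at 0.81, and it was at 0.22 in A549. LPCAT3, which stands in both of these lists, was the lowest of the LXR, efflux and storage list by that mean, at -0.02 and -0.15. In HCC827 alone NPC2 was the lowest, at -0.69, and it was at 0.97 in A549.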

How the data were processed

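RNA of the 4 cell populations was sequenced by the authors as 1 library each. According to the study's methods, adapters were trimmed, low-quality and low-complexity sequence was masked, reads were mapped to hg38 with Bowtie2 and genes were counted with HTSeq; the annotation release and whether strand was used are not given in the sources used here. The methods describe poly(A) selection and the labels removal of ribosomal RNA, with a stranded kit. The methods name RPKM, but the deposited signal is not scaled by length: the authors' values equal reads over a size factor that was set for each library within the pair of a line. Reads were recovered by dividing by the value of 1 read: within a tolerance of 0.001, 100% of values with reads came out whole in both myr-AKT1 libraries and all but 1 value in each vector library. The myr-AKT1 and vector libraries of A549 held 25190760 and 33530317 recovered reads, those of HCC827 16322183 and 27312465.

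Identifiers were named from GENCODE release 44 (297 of 60558 without a match), and exon lengths are merged exons of that release. Log2 fold changes within a line are ratios of deposited values with no pseudocount added; their 95% intervals are Clopper-Pearson intervals of the reads, and no test was made within a line. Reads are not independent molecules, so intervals cover counting error only. Shares over all genes used those with a mean value of at least 10 and at least 1 read in both libraries; all 34 members passed. The fit over 4 libraries used limma on log2(value + 1) with a mean-variance trend, genes kept by edgeR's filterByExpr and cell line as a block. Benjamini-Hochberg adjustment was made over 19314 genes. The fit was also run on simulated counts in which both lines had the same myr-AKT1 effect. That run cannot show how the fit behaves where the lines differ in response. The fit treats the lines as replicates, so its p-values rest on how far the lines differ in their response. With 1 library per group, the spread between cultures of a line cannot be told apart from that difference. Levels between lines used size factors over all 4 libraries.

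The 34 members, the branches and the other gene lists were chosen with earlier results of these data known. All members are described. From each other list, the genes with the highest and lowest mean log2 fold change over both lines were named. Some genes that were highest or lowest in 1 line alone were named after their values were seen. The lowest gene of 1 list is not reported here. Alternatives were TMM, total reads, size factors over all 4 libraries, pseudocounts of 1 or 0.1, other filters and thresholds, edgeR and DESeq2 on the recovered reads, and no block; a threshold of 0.5 was added after seeing the data. Python 3.11.15 was used with pandas 2.3.3, scipy 1.17.1, matplotlib 3.10.9 and numpy 2.4.6, and R 4.3.3 with DESeq2 1.42.0, limma 3.58.1 and edgeR 4.0.16.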

Additional observations from a re-analysis of the deposited data

Results flagged for a closer look

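For 12 of the 34 genes, the counting intervals excluded 0 with opposite signs in A549 and HCC827, against 14.7% of all genes. The calls of ELOVL5 and SCAP depended on the scaling. The interval of ELOVL5 in HCC827 ended at -0.022, and total reads moved fold changes in that line up by 0.080. That of SCAP in A549 ended at -0.056, and size factors over all 4 libraries moved fold changes there up by 0.102. With 1 library per condition, none of these differences between lines was tested. The log2 fold change in HCC827 minus that in A549 was positive for 5 of them, which were lower in A549 and higher in HCC827: FASN at 1.03, SQLE at 0.63, HMGCS1 at 0.61, SCAP at 0.55 and DHCR7 at 0.41. It was negative for the 7 that were higher in A549 and lower in HCC827. INSIG2 had the widest gap, at -1.15, followed by LPIN1 at -1.07 and STARD4 at -0.81. ELOVL5 and FADS2 both stood at -0.59, and IDI1 and ACLY at -0.55 and -0.54. The smallest of these differences, that of DHCR7, had a counting interval of 0.30 to 0.52.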

How the results depend on the processing

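Of the 68 log2 fold changes of members, 64 kept their sign under the 4 alternatives of scaling and pseudocount. The 4 that changed were those of LSS and ELOVL6 in A549 and of MVK and FADS1 in HCC827, each within 0.034 of 0 as reported. With size factors over all 4 libraries, the A549 medians were 0.069 for the sterol and 0.44 for the fatty acid branch. Members above a log2 fold change of 1 in HCC827 numbered 2 with total reads and 2 with size factors over all 4 libraries, against 1 as reported. At a threshold of 2 there were 0 members in either direction in both lines, and at 0.5 there were 5 higher in A549 and 11 higher and 3 lower in HCC827.

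Counts over all genes moved with the filter and the threshold. In A549, 2769 genes were higher and 1843 lower as reported, 1570 and 1103 when the mean had to reach 50, 4433 and 3009 when a read in both libraries was enough, 1032 and 519 at a threshold of 2, and 4964 and 4613 at 0.5. In HCC827, 2416 were higher and 2139 lower as reported, 1342 and 1348 when the mean had to reach 50, 768 and 519 at a threshold of 2, and 4563 and 4771 at 0.5, and 3975 were higher when a read in both libraries was enough.

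In the fit over 4 libraries, 2 members (ACSS2 and SCD) passed higher with DESeq2 and 2 when every gene with a read in any library was kept, against 0 with limma as reported. Across all genes 250 were higher and 335 lower as reported, 621 and 518 with DESeq2, 60 and 101 with size factors over all 4 libraries, 1101 and 894 when a read in any library was enough, and 0 and 0 both with a pseudocount of 0.1 and without the cell line block, where 4 and 0 members had an unadjusted p under 0.05. The cause of these shifts was not tested. Leaving out a library was not run, because it leaves 1 line with 1 condition and 0 residual degrees of freedom. The fit itself pairs myr-AKT1 with vector by cell line. Pairing by replicate number could not be added, because each group has 1 library. Depth limited PMVK and CYP51A1 most, whose intervals in HCC827 were the widest among the sterol genes.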
